A study of Mus musculus with 6 samples.

Results

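Interferon-stimulated genes are the genes that cells switch on when an interferon binds its receptor. They were read here in lungs of mice that make the type 2 cytokine IL13 in their airways. The genes were taken from a list of 37 symbols, each read from whichever of its single-gene probe sets averaged highest across the 6 arrays. Of the 37 genes 33 were measured in this way, out of 18193 genes in all, and Rigi was found under its older symbol Ddx58. The list held 28 type I-like genes, of which 25 were measured, 8 GTPase genes of the guanylate-binding protein (GBP) and immunity-related GTPase (IRG) families, of which 7 were measured, and Tap1, which encodes a peptide transporter. Isg15 and Gbp4 were annotated only on probe sets that also name another gene, and Oas1g and Ifi44 carried no annotated probe set, so these 4 genes are not analysed here.

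The series holds Affymetrix expression arrays of the left upper lung lobe from 2 CC10-rtTA-IL13 transgenic mice and 4 wild-type mice of the C57BL/6 strain, aged 6 to 10 weeks. The transgene's activator, rtTA, needs doxycycline and is expressed from the promoter of CC10 (Scgb1a1), a gene of airway club cells. Both genotypes drank water with doxycycline at 2 mg/mL for 7 days, so neither group is free of the drug. Each array holds 1 mouse, a biological replicate by its label, and the groups are called transgenic and wild type below.

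Type I interferons signal through the receptor chains Ifnar1 and Ifnar2 to a complex of STAT factors with Irf9, which binds the interferon-stimulated response element (ISRE) in promoters. Interferon gamma, a product mainly of T and NK cells, acts through Ifngr1 and Ifngr2 and is the stronger inducer of many GBP and IRG genes in mice. IL13 signals through a different factor, STAT6, and drives goblet cell mucus and alternative macrophage activation in the lung. The products of the listed genes hold back viruses and intracellular microbes at many steps, from sensing foreign RNA to attacking the vacuoles in which microbes live.

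Promoter sequences are shown for 3 genes that carry an ISRE, namely Oas1a, Ifit3 and Igtp. Oas1a and Ifit3 passed the test between genotypes described below, and Igtp did not. Ifit2, which passed too, is not shown, as its windows held no ISRE match. Each sequence shown runs 5′ to 3′ on the strand of its gene, from 250 bases before to 50 bases after the annotated start, as RefSeq gives it on GRCm38.p6. Capitals mark matches to the ISRE, searched on both strands as GAAA followed by any 2 bases and GAAA again, and in Oas1a 2 matches overlap. Oas1a lies at chr5:120907476-120907775 (minus strand), Ifit3 at chr19:34583279-34583578 (plus strand) and Igtp at chr11:58199306-58199605 (plus strand).
Oas1a: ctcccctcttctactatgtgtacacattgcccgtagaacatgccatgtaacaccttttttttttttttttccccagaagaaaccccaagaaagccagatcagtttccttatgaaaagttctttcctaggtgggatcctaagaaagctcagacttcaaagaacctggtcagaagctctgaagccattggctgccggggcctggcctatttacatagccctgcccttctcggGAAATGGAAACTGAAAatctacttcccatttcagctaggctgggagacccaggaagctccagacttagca
Ifit3: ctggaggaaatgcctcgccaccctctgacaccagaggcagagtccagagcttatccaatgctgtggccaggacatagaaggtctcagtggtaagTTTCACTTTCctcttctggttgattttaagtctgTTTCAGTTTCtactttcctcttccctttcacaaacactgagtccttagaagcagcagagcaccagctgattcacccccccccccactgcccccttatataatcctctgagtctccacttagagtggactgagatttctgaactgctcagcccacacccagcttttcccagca
Igtp: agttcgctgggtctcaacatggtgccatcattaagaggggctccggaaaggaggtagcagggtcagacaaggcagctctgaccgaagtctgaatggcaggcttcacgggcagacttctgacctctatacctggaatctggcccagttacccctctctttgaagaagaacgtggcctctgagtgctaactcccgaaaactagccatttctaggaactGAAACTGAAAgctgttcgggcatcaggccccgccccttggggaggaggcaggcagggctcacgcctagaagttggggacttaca

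Among the GBP and IRG genes the ISRE sat close to the start site in each of the 5 genes whose window was given. The stretches below hold 15 bases on either side of the match, so that the sites can be compared. They lie at chr3:142620589-142620628 for Gbp2 (plus strand), chr3:142559984-142560029 for Gbp3 (plus strand), chr11:58199507-58199546 for Igtp (plus strand), chr11:48871420-48871465 for Irgm1 (minus strand) and chr11:58214898-58214937 for Irgm2 (plus strand).
Gbp2: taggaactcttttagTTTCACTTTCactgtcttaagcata
Gbp3: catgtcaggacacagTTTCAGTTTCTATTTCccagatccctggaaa
Igtp: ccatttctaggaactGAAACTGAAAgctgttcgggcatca
Irgm1: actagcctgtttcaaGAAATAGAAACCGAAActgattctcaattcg
Irgm2: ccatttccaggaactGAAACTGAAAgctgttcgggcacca
The stretches of Igtp and Irgm2 were identical at 38 of 40 bases, and those of Gbp3 and Irgm1 held 2 overlapping matches each.

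Promoter windows were given for 24 of the 33 measured genes. The ISRE letters occurred in 14 of these 24 (58.3%), against 1079 of 27025 genes with a window (3.99%). By group, 9 of 18 type I-like genes and 5 of 5 GBP and IRG genes held a match. The letters TTCNNNGAA, to which STAT dimers of interferon gamma signalling bind, occurred in 7 of the 24 genes (29.2%) and in 9.55% of all genes with a window. The wider form with 4 bases between TTC and GAA, which STAT6 prefers, occurred in 6 of them (25%) and in 8.01% of all. Oas1a held all these motifs, and a match to the STAT6 form overlaps its first ISRE match. Ifit2 and Isg20 also held both STAT forms, without an ISRE match. In both Ifit2 windows no ISRE match was found, which says only that these letters are not in those stretches.

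After 7 days of doxycycline few of the 33 listed genes measured passed between genotypes, and those that did moved in opposite directions. Oas1a, an oligoadenylate synthetase, rose 2.80-fold, whereas Ifit2 and Ifit3, which encode partner proteins that bind foreign RNA, fell 1.86-fold and 1.61-fold. The other 30 measured genes did not pass. At an adjusted p under 0.05 in limma (Benjamini-Hochberg over all 18193 genes), 1 of 33 genes was higher, against 8.43% of all genes, and 2 were lower, against 10.5% of all genes. Together 3 of 33 (9.09%) were called, against 19% of all genes, and 1 of them, Oas1a, also differed by at least 2-fold, against 4.92% of all genes. The median log2 difference was -0.17 over the 25 type I-like genes, -0.33 over the 7 GBP and IRG genes, and -0.0047 over all genes. The medians are given without a test.

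**Figure D1:**
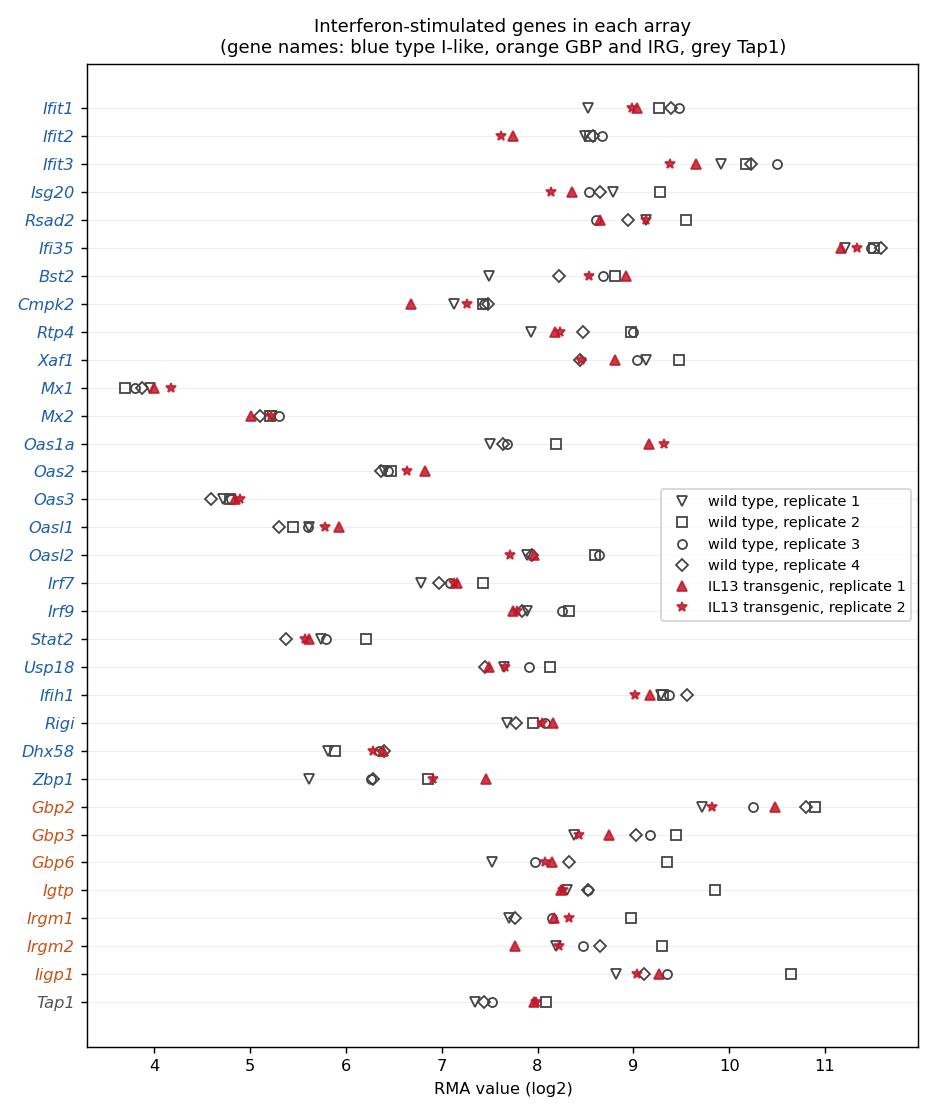
RMA values (log2, horizontal axis) of the 33 measured genes in each array, with open grey symbols for the 4 wild-type mice and red symbols for the 2 transgenic mice. The red symbols of Oas1a lie above and those of Ifit2 and Ifit3 below all grey ones, and the open square (wild-type replicate 2) is the rightmost grey symbol in every GBP and IRG row.

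The IFIT proteins bind the ends of foreign RNA and block its translation. Ifit2 read 7.74 and 7.62 in transgenic lungs, against 8.50, 8.55, 8.67 and 8.58 in wild-type replicates 1 to 4 (log2 RMA values, as below). The wild-type values lay within 0.17 of each other and far above both transgenic ones, and the difference was -0.89 ± 0.11 (SE, n = 2 and 4, adjusted p = 0.0010, limma). Ifit3 read 9.66 and 9.38 against 9.91, 10.18, 10.50 and 10.23, again with no overlap, a difference of -0.69 ± 0.17 (adjusted p = 0.025, limma). Leaving out either transgenic mouse ended the call of Ifit3, with a difference of -0.82 (adjusted p = 0.074, limma) without replicate 1 and of -0.55 (adjusted p = 0.18, limma) without replicate 2. Each of these fits holds 1 transgenic mouse, whose spread is taken to equal that of wild type. Ifit1, which recognises RNA caps that lack a host methyl mark, did not pass. It read 9.03 and 8.98 in transgenic lungs, inside the wild-type values of 8.52, 9.26, 9.47 and 9.39, and differed by -0.15 ± 0.25 (adjusted p = 0.72). All 3 IFIT genes were lowest in replicate 1 and highest in replicate 3 among the wild-type arrays, orders found for 17.8% and 19.8% of all genes. Ifit3 has a close copy in the genome, Ifit3b, and an array may not fully separate the copies.

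Oligoadenylate synthetases make short adenylate chains that switch on RNase L, an enzyme that destroys RNA. Oas1a read 9.16 and 9.32 in transgenic lungs, against 7.50, 8.19, 7.68 and 7.64 in wild-type ones. Both transgenic values lay about a log2 unit above the highest wild-type array, and the difference was 1.49 ± 0.19 (95% interval 1.06 to 1.92, adjusted p = 0.0013, limma). With any single array left out it ranged from 1.40 to 1.63 and remained called. Oas1a belongs to a cluster of similar genes, and signal from its copies cannot be told apart from its own with certainty.

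None of the other 4 measured synthetases passed. Oas2 read 6.83 and 6.64 against 6.40, 6.47, 6.44 and 6.37, and the difference of 0.31 ± 0.11 missed the threshold (adjusted p = 0.084). Oas3 read 4.85 and 4.90 against 4.60 to 4.80 (0.14 ± 0.11). Oasl1, which in mice lacks synthetase activity and limits Irf7 production, read 5.93 and 5.78 against 5.31 to 5.61 (0.36 ± 0.13, adjusted p = 0.087). In these 3 genes, as in Oas1a, the transgenic arrays lay above all wild-type arrays, an order found for 19.7% of all genes. None of the 3 passed. Oasl2 lay the other way at 7.96 and 7.72 against 7.89, 8.59, 8.64 and 7.94, a difference of -0.43 ± 0.24 with overlapping groups.

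The remaining type I-like effectors showed no call. Isg20, an exonuclease that degrades viral RNA, read 8.35 and 8.14 against 8.79, 9.27, 8.54 and 8.65, and the groups did not overlap (-0.57 ± 0.20, adjusted p = 0.085). Rsad2 (viperin), which makes a nucleotide that stops viral polymerases, differed by -0.17 ± 0.25. Its other probe sets gave -0.61 ± 0.39 and -0.40 ± 0.48 and did not pass. Cmpk2, a mitochondrial nucleotide kinase and the neighbour of Rsad2 in the genome, read 6.68 and 7.27 against 7.13 to 7.48 (-0.39 ± 0.18, adjusted p = 0.17, limma). Its transgenic arrays differed more from each other than the 4 wild-type arrays did. Bst2 (tetherin), which holds budding virus at the cell surface, spanned 7.49 to 8.81 in wild-type arrays and read 8.92 and 8.54 in transgenic ones (0.43 ± 0.34). For Ifi35, Rtp4 and Xaf1 the differences were -0.20 ± 0.13, -0.39 ± 0.28 and -0.39 ± 0.26, with overlapping groups. Another probe set of Ifi35 read 7.88 and 7.99 against 8.20 to 8.45, without overlap, and did not pass (-0.39 ± 0.13). A further one differed by -0.19 ± 0.15.

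Mx proteins are GTPases that trap viral particles, and the Mx1 allele of C57BL/6 mice is known to encode no working protein. Mx1 read 4.0 and 4.18 against 3.70 to 3.95, close to the lower quartile of all probe set values (3.79). Its difference of 0.26 ± 0.12 did not pass (adjusted p = 0.18). Mx2 read 5.01 and 5.22 against 5.10 to 5.30 (-0.10 ± 0.12). Usp18, the protease that removes Isg15 from proteins and restrains the type I receptor, read 7.49 and 7.66 against 7.45 to 8.13 (-0.21 ± 0.19).

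Sensors of foreign nucleic acid are themselves interferon-stimulated. Zbp1, which detects left-handed nucleic acid and can trigger necroptosis, read 7.46 and 6.91 in transgenic lungs, against 5.61, 6.86, 6.26 and 6.28 in wild-type ones. The transgenic values lay above all wild-type ones, though replicate 2 of each genotype lay only slightly apart. The difference of 0.93 ± 0.31 did not pass (adjusted p = 0.070), but passed without wild-type replicate 2 (1.13, adjusted p = 0.015). With any other single array left out its adjusted p lay between 0.096 and 0.39 (limma). The second probe set of Zbp1 gave a difference of 0.08 ± 0.21. Ifih1 (MDA5), a sensor of long double-stranded RNA, read 9.17 and 9.02 against 9.28 to 9.56, without overlap (-0.29 ± 0.12, adjusted p = 0.15).

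Rigi (RIG-I), a sensor of RNA ends, depended on the probe set. The probe set that averaged highest differed by 0.23 ± 0.14 and did not pass. Another, at 5.98 and 6.35 in transgenic and 6.59 to 6.83 in wild-type arrays, was lower by 0.54 on the log2 scale (difference -0.54 ± 0.14, adjusted p = 0.034 over all probe sets, limma). Dhx58 (LGP2), a helper of both sensors, read 6.38 and 6.29 against 5.82 to 6.39 (0.22 ± 0.19).

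Of the transcription factors that carry the type I signal none passed. Irf9, the DNA-binding subunit of the complex on the ISRE, read 7.74 and 7.79 against 7.89, 8.33, 8.26 and 7.84 (-0.32 ± 0.16, adjusted p = 0.22). Stat2, its partner, differed by -0.18 ± 0.20 on the probe set used throughout and by 0.14 ± 0.16 on the other. Irf7, which amplifies interferon alpha production, read 7.16 and 7.13 in the middle of wild-type values of 6.78 to 7.43 (0.08 ± 0.17).

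**Figure D2:**
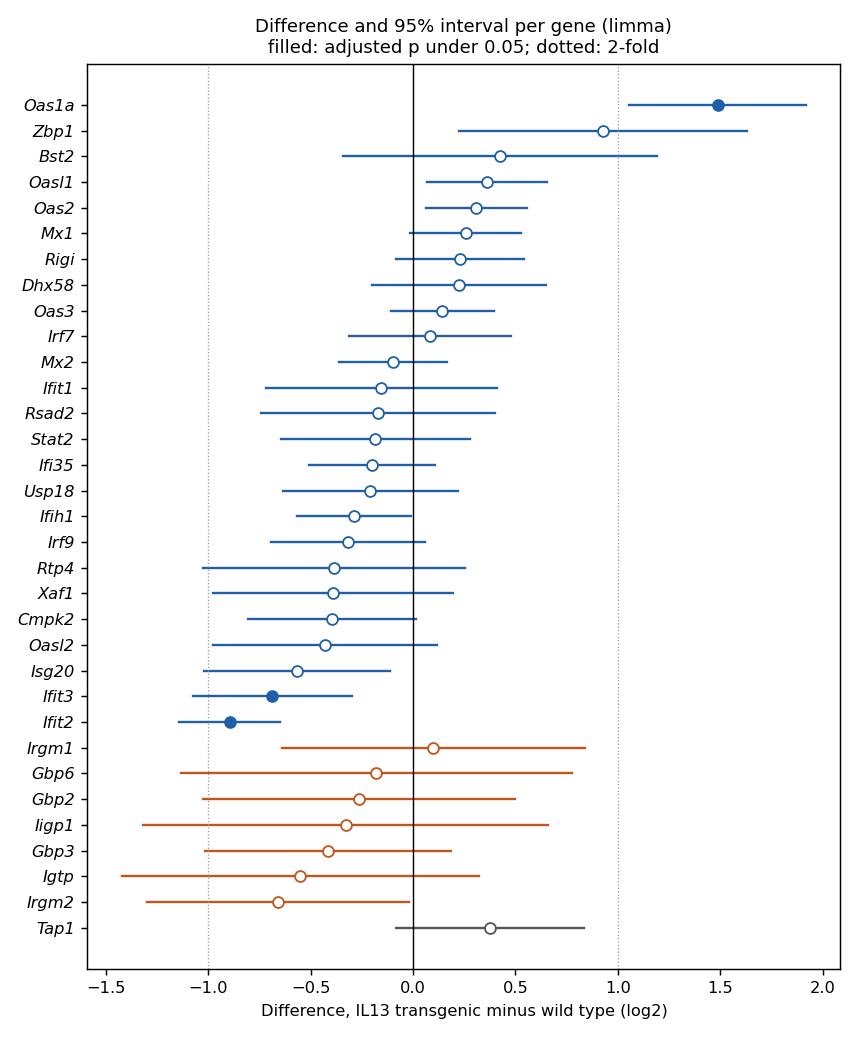
Difference between transgenic and wild-type means (log2, horizontal axis) with its 95% interval from limma for each of the 33 genes, in blue for type I-like genes, orange for GBP and IRG genes and grey for Tap1. Filled points mark the 3 genes with an adjusted p under 0.05, and the dotted lines mark 2-fold changes.

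A gene that did not pass may still differ, and the intervals show how much room was left. For 20 of 33 genes the 95% interval lay within a 2-fold change either way, against 85.6% of all genes. Among type I-like genes 18 of 25 had such an interval, and among GBP and IRG genes 1 of 7, namely Irgm1. Without adjustment 9 of 33 genes had a p under 0.05 in limma, against 32% of all genes. Groups did not overlap for 12 of 33 genes (36.4%), against 41.7% of all genes. Of these, 6 lay above, against 19.7% of all genes, and 6 below, against 22% of all genes.

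GBP and IRG proteins coat the vacuoles of intracellular microbes and break them open, and none of their 7 measured genes passed in limma (1 at an unadjusted p under 0.05). The wild-type arrays differed widely among themselves. Igtp (Irgm3), a regulatory IRG, read 8.24 and 8.27 in transgenic lungs and 8.31, 9.85, 8.53 and 8.52 in wild-type replicates 1 to 4. Both transgenic values lay just below the lowest wild-type one, and replicate 2 stood far above the rest. The difference of -0.55 ± 0.38 (adjusted p = 0.37) shrank to -0.20 without wild-type replicate 2. Iigp1 (Irga6), an effector IRG, read 9.27 and 9.04 against 8.82, 10.64, 9.35 and 9.11. The groups overlapped, and again replicate 2 was high. The difference was -0.33 ± 0.43, and 0.059 without wild-type replicate 2.

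The same array stood high in the other listed genes of these families. Irgm2 read 7.77 and 8.22 in transgenic and 8.19, 9.30, 8.47 and 8.65 in wild-type arrays (-0.66 ± 0.28, adjusted p = 0.15). Its groups overlapped narrowly, and its difference was the lowest among the 7 genes. Irgm1, which with Irgm2 and Igtp keeps effector IRGs off host membranes, read 8.17 and 8.33 against 7.70, 8.98, 8.15 and 7.76 (0.10 ± 0.32), with both transgenic values inside the wild-type range. Guanylate-binding proteins attack vacuoles that IRGs have marked. Gbp2 read 10.48 and 9.82 against 9.72, 10.90, 10.25 and 10.80 (-0.26 ± 0.33). Gbp3 read 8.74 and 8.44 against 8.38, 9.45, 9.17 and 9.03 (-0.42 ± 0.26). For Gbp6 the values were 8.16 and 8.08 against 7.53, 9.35, 7.97 and 8.33 (-0.18 ± 0.42). In all 3 GBP genes the transgenic values lay within the wild-type range. These genes have close relatives, and the probe set of Gbp2 is of a type that can bind related transcripts.

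In all 7 listed GBP and IRG genes measured, wild-type replicate 2 was the highest and replicate 1 the lowest of the 4 wild-type arrays. Among all genes replicate 2 was the highest in 25% and replicate 1 the lowest in 17.8%. The range of the wild-type arrays had a median of 1.28 over these 7 genes, 0.58 over the type I-like genes and 0.34 over all genes (log2). Measured from each gene's wild-type median, replicate 2 lay at 1.02 (median of the 7 genes) and replicate 1 at -0.41, while replicates 3 and 4 lay at 0.004 and -0.003 and the transgenic arrays at -0.04 and -0.26. For type I-like genes the same quantity was 0.09 in replicate 2 and -0.16 in replicate 1. Within that group replicate 2 was the highest wild-type array in 11 of 25 genes and replicate 1 the lowest in 14 of 25.

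**Figure D3:**
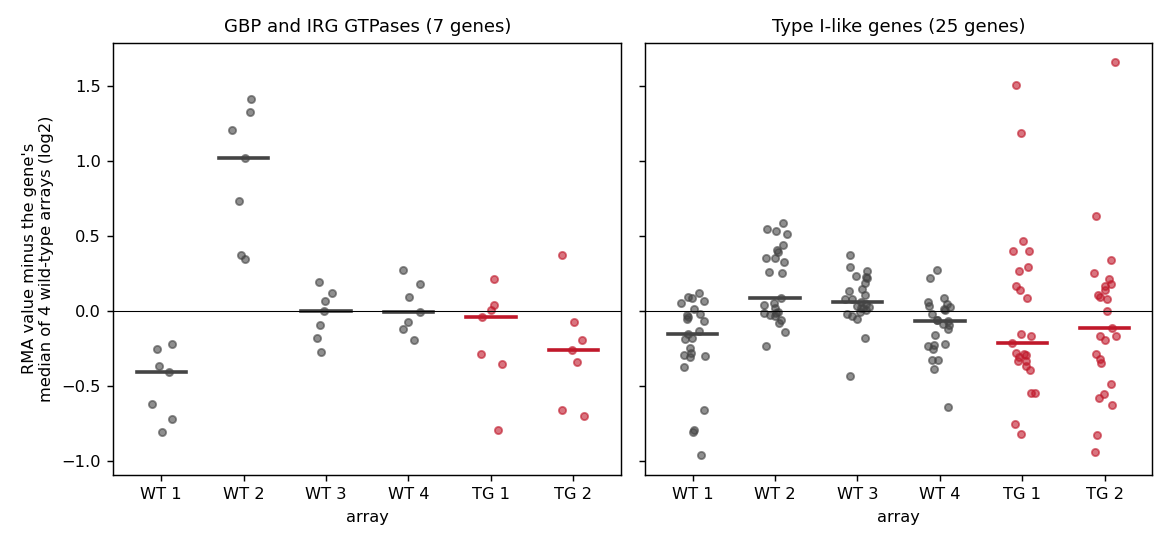
RMA value of each gene in each array minus that gene's median over the 4 wild-type arrays (log2, vertical axis), for the 7 GBP and IRG genes (left) and the 25 type I-like genes (right), with grey points for wild-type and red points for transgenic mice. Horizontal bars are medians over genes, which for GBP and IRG genes stand at 1.02 in wild-type replicate 2 and -0.41 in replicate 1.

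Without wild-type replicate 2 the median difference of the 7 GBP and IRG genes was -0.10, and without replicate 1 it was -0.55. Without both replicates 2 and 4 the median turned sign, to 0.068. The wild-type arrays left there were replicates 1 and 3, and replicate 1 was the lowest wild-type array in all 7 genes. In none of these fits did any of the 7 genes pass. Tap1, which feeds peptides to MHC class I molecules, had the same order of wild-type arrays. It read 7.97 and 7.99 in transgenic lungs and 7.35, 8.09, 7.53 and 7.44 in wild-type replicates 1 to 4. The groups overlapped through replicate 2 alone. The difference was 0.38 ± 0.20 (adjusted p = 0.24), and it passed without wild-type replicate 2 (0.54, adjusted p = 0.017). With any other single array left out its adjusted p lay between 0.34 and 0.47 (limma). Of 3 further probe sets of Tap1 1 had the opposite sign.

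Many other genes that interferon gamma induces were also high in that array. On that list of 20 genes, 16 were measured, and replicate 2 was the highest wild-type array in 13 of them, against 25% of all genes. Among 33 further interferon-stimulated genes measured it was the highest in 17. The 16 include Tap2, Gbp7 and Gbp8, relatives of listed genes. Gbp7 was highest in replicate 2, but Gbp8 read 5.02, 5.92, 5.77 and 5.98 in replicates 1 to 4, highest in replicate 4. Cxcl9, a chemokine that draws T cells and is named here after its values were seen, read 8.14 in wild-type replicate 2, 4.74, 4.49 and 6.07 in replicates 1, 3 and 4, and 5.98 and 5.47 in transgenic lungs. Between genotypes 1 of the 16 was higher and 0 lower, against 8.43% and 10.5% of all genes. That gene was Cd274 (PD-L1), an inhibitory ligand of T cells, which rose by 1.81 ± 0.22 (adjusted p = 0.00097, limma).

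Most markers of T and NK cells, the main sources of interferon gamma, were also high in that array. Of 12 listed markers 10 were measured, and wild-type replicate 2 was the highest wild-type array in 8, against 25% of all genes. Eomes and Tbx21 were highest in replicate 4 instead, at 5.20 and 4.74, against 4.99 and 4.39 in replicate 2. The mean level of all 10 was 6.17 in replicate 2, between 5.76 and 5.88 in replicates 1, 3 and 4, and 5.75 and 5.86 in transgenic lungs (log2). Nkg7, a granule protein named after its values were seen, read 6.85 in replicate 2, against 5.58 to 5.86 in replicates 1, 3 and 4. Its wild-type range of 1.27 was the widest of the 10, whose median range was 0.45. Ifng itself, also named after its values were seen, read 3.02 in replicate 2 and 2.82 to 3.05 in the others, below the lower quartile of all probe set values. Replicate 2 also had the highest wild-type mean of endothelial (9.94), lung epithelial (12.62) and macrophage markers (8.83). Its means of neutrophil (6.26) and plasmacytoid dendritic cell markers (6.34) were the lowest among wild-type arrays. The part of any of these cell types in the GBP and IRG levels was not tested. In whole lung, fewer cells of a type and less RNA per cell cannot be told apart.

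**Figure D4:**
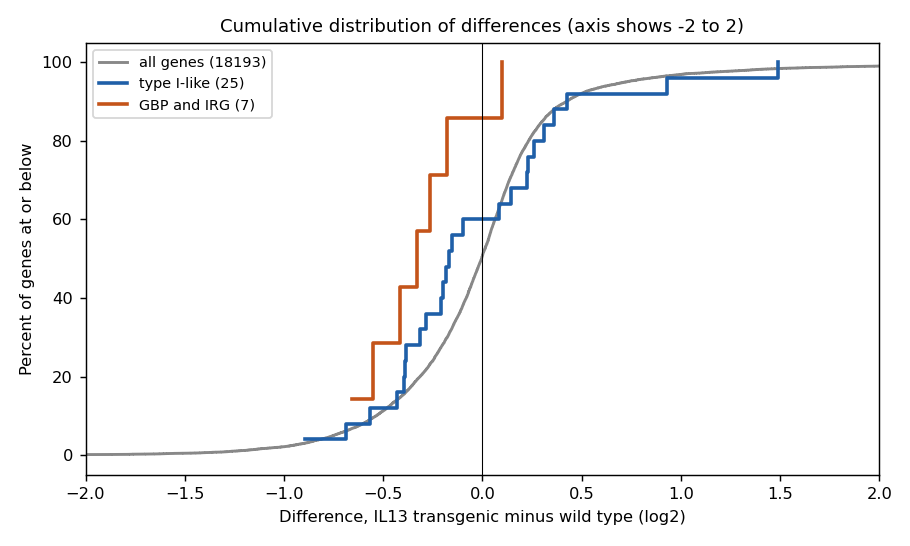
Cumulative percent of genes (vertical axis) at or below each difference between transgenic and wild-type means (log2, horizontal axis, shown from -2 to 2), for all 18193 genes in grey, the 25 type I-like genes in blue and the 7 GBP and IRG genes in orange. The blue curve crosses a difference of 0 at 60% and the orange one at 85.7%, where all genes stand at 50.8%.

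Upstream of these genes, none of the 10 measured interferon ligand genes passed in limma (2 at an unadjusted p under 0.05), and their mean levels lay between 2.99 and 5.64. The largest difference was that of Ifna9 (0.37 ± 0.11, adjusted p = 0.056). Of 6 receptor chains 2 rose and 0 fell, against 8.43% higher and 10.5% lower among all genes. Ifngr2, the signalling chain of the interferon gamma receptor, read 9.76 and 9.93 against 8.33, 9.06, 8.83 and 8.45, a rise of 1.18 ± 0.20 (adjusted p = 0.0056, limma). Il10rb, shared by the receptors of IL10 and interferon lambda, rose by 0.53 ± 0.12 (adjusted p = 0.018, limma). Of 9 measured kinases, STAT and IRF factors 1 rose, Irf5 (0.55 ± 0.16, adjusted p = 0.042, limma), a factor of inflammatory cytokine genes.

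Inhibitors of the pathway changed in both directions, with 3 of 8 higher, 3 lower and 2 not passed. Among all genes 8.43% were higher and 10.5% lower. Socs3, a feedback inhibitor of cytokine receptors, rose by 1.48 ± 0.27 and Ptpn2, a phosphatase that acts on JAK kinases and STATs, by 1.18 ± 0.13. The phosphatase gene Ptpn6 rose by 0.43 ± 0.11. Pias1, an inhibitor of STAT binding to DNA, fell by 0.54 (SE 0.13).

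Sensors and adaptors outside the list had 6 of 13 genes higher, 0 lower and 7 not passed. Of all genes 8.43% were higher and 10.5% lower. Tlr7, an endosomal receptor for single-stranded RNA, read 8.06 and 7.76 against 5.37, 5.55, 5.73 and 6.10, a rise of 2.22 ± 0.20 (adjusted p = 0.00021, limma). Ifi204 rose by 1.72 ± 0.19, the kinase gene Ikbke by 1.18 ± 0.12 and Sting1, the adaptor for cytosolic DNA, by 1.06 ± 0.20. Of 33 further interferon-stimulated genes measured 6 rose, 0 fell and 27 did not pass, with a median difference of 0.03. They were led by Slfn2 (1.05 ± 0.12), Lgals3bp (0.96 ± 0.23), Epsti1 (0.78 ± 0.16) and Ifitm1 (0.72 ± 0.17).

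Markers of other cell types also differed between genotypes, where 8.43% of all genes were higher and 10.5% lower. Of 12 macrophage markers 10 rose and 0 fell, with a median difference of 1.81, and their mean level was 10.60 and 10.72 in transgenic against 8.73 to 8.83 in wild-type arrays. Marco, Cd68, Itgax and Mrc1 rose by 3.66, 3.59, 3.46 and 2.50. Chil3, on the list of inflammatory monocytes (1 of 4 higher, 0 lower), rose by 1.45 ± 0.13. Endothelial markers, by contrast, had 0 of 8 higher and 3 lower, with Tek, Cdh5 and Kdr falling by 1.31, 1.12 and 0.78. Plasmacytoid dendritic cells, strong producers of type I interferon, gave no call among 8 measured markers in limma (2 at an unadjusted p under 0.05), and Pacsin1 had the largest difference at 0.44 ± 0.17 (adjusted p = 0.12). Siglech, their surface lectin, named after its values were seen, read 5.19 and 5.37 against 5.22 to 5.49. Of 10 markers of T and NK cells 0 were higher and 1 was lower, the granzyme gene Gzma (-0.90 ± 0.16, adjusted p = 0.0057, limma). Among 6 neutrophil markers none passed (0 at an unadjusted p under 0.05), and S100a8 was the farthest apart at 0.88 ± 0.41 (adjusted p = 0.18). Among 5 measured B cell markers 1 was higher, 0 were lower and 4 did not pass, with a median difference of 0.11, and the one that rose was Cd22 (1.31 ± 0.15, adjusted p = 0.00073, limma). The part of these cell types in the levels of the listed genes was not tested.

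Across the whole series RMA values ran from 2.297 to 15.19, and array medians lay between 5.28 and 5.31. Markers of lung epithelium had array means of 12.12 to 12.62, and Scgb3a2 and Hopx fell by 1.58 and 0.89 and Ager by 0.37, whereas Sftpd rose by 0.75. The probe set of Il13 read 4.24 and 4.09 against 3.72 to 4.03, near the floor, and did not pass (adjusted p = 0.11, limma). No source used here places that probe set relative to the transgene, so it checks nothing about the labels. Scgb1a1 read 14.67 and 15.01 against 14.82 to 15.14, near the top of the scale (-0.19 ± 0.14). The number of arrays limits the precision.

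The authors' deposited table of comparisons gives the same differences for all 33 genes within 0.001, as its fold column holds differences of log2 means. Its q-value was under 0.05 for 1 of the 33, Ifit2 (0.035), and for 1.88% of all probe sets. In the authors' deposited table Oas1a had a q-value of 0.080 and Ifit3 of 0.12.

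Of the 33 genes 13 had more than 1 annotated probe set. In 10 of these all probe sets had the same sign, and in 3, namely Rigi, Stat2 and Tap1, both signs occurred. Over the 52 probe sets tested one by one, 1 was higher and 3 were lower, those of Oas1a, Ifit2 and Ifit3 and the further one of Rigi named above.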

How the data were processed

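Lung RNA of 2 IL13-transgenic and 4 wild-type mice was extracted with TRIzol and hybridised to Affymetrix mouse arrays, per the labels' protocols. The values are log2 RMA values of 45037 probe sets, made and deposited by the authors with RMA (no version given), per the submitters' processing notes, and were not normalised again. The deposited table of comparisons holds the authors' log2 differences and a q-value per probe set, per the file headers, made by a test that no source used here names. Its 6 columns of single arrays match no sample label and were not used.

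Of the probe sets 34945 carried 1 gene symbol, 932 several and 9160 none. For 34741 of those with 1 symbol the Entrez ID was found in RefSeq (GRCm38.p6). The RefSeq symbol was used for these, whether or not it differed, giving 18193 genes in all. Each gene was read from its highest-averaging probe set. limma 3.58.1 (R 4.3.3) fitted the 2 genotypes without an intensity trend on 4 residual degrees of freedom. P-values were adjusted over all 18193 genes after Benjamini and Hochberg, and 0.05 was the threshold. The SE is limma's moderated one, and intervals are 95%.

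The members, gene lists and tests were chosen with earlier results of these data known. Named are all members, Il13, Scgb1a1, and up to 4 called genes per other list with the largest changes, or the largest change where none passed. Cxcl9, Nkg7, Ifng, Siglech, Gbp7, Gbp8, Tap2, Eomes and Tbx21 fall outside that rule and were chosen after their values were seen. Lists were described by counts and medians without a test. Alternatives were filters, normalisation, moderation, reading of probe sets, a block for the replicate number, and arrays left out. Promoter windows came from RefSeq and were searched on both strands. Plots used matplotlib 3.10.9 (Python 3.11.15).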

Additional observations from a re-analysis of the deposited data

Results flagged for a closer look

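Among 70 values checked for a wild-type array that stands apart from the other 3, 3 were picked out, and chance picks about 1 in 20. Igtp read 9.85 in wild-type replicate 2, against 8.31 to 8.53 elsewhere in that group. The same array was highest for all 7 listed GBP and IRG genes measured. Cmpk2 read 7.13 in wild-type replicate 1, against 7.43 to 7.48. The endothelial marker Tek read 10.82 in wild-type replicate 4, against 11.20 to 11.24.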

How the results depend on the processing

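The fits with filters, quantile normalisation, centring, an intensity trend or robust moderation called the same 3 listed genes (Ifit2, Ifit3, Oas1a). With the 2 filters 25 and 28 of the 33 listed genes were tested. Oas1a and Ifit2 were called in every setting run. Reading the mean of all probe sets added Cmpk2 (difference -0.37), and there Rigi differed by -0.010. The probe set with the largest variance gave Rigi as lower (-0.54). Leaving out 1 array at a time gave 731 to 1578 higher and 580 to 2016 lower genes in all. Over the listed genes it gave 1 to 3 higher and 1 to 2 lower. No GBP or IRG gene was called in any of these fits. The sign turned in at least 1 of these fits for Mx2 (-0.20 to 0.0081), Irf7 (-0.014 to 0.20), Rsad2 (-0.41 to 0.0725), Gbp2 (-0.59 to 0.068), Gbp6 (-0.43 to 0.17), Irgm1 (-0.049 to 0.38) and Iigp1 (-0.55 to 0.059), with no call on either side. Leaving out both wild-type replicates 2 and 4 gave 3 higher and 1 lower listed genes, with Ifit1 at 0.010, Rsad2 at 0.0195, Gbp2 at 0.17, Gbp6 at 0.37 and Iigp1 at 0.068. The median of the 7 GBP and IRG genes was 0.068 there, against -0.33 with all arrays, and negative in every other setting run. The replicate numbers pair no samples by any label. Same-numbered arrays correlated at -0.08 and 0.27, and transgenic replicate 1 with wild-type replicate 4 also at 0.27. Deviations of 2 transgenic arrays from their mean mirror each other, so these correlations cannot decide on a pairing. With the replicate number as a block 2 listed genes were higher and 4 lower, 1 of them a GBP or IRG gene (Irgm2), and Ifit1 (0.11) and Irgm1 (-0.091) turned sign. Ifit3 differed by -0.53 in that fit (adjusted p = 0.064, limma), and by -0.69 without both wild-type arrays (adjusted p = 0.074, limma), the same size as with all arrays. It was called in neither fit. Wild-type replicates 3 and 4 have no partner in that fit. The causes were not tested.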
